A study of Homo sapiens with 9 samples.

Results

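The aldo-keto reductase genes AKR1C1, AKR1C2, AKR1C3, AKR1B1, AKR1B10 and AKR1A1 were followed through TGF-β1 treatment of a tongue cancer cell line. They are 6 of the 58233 gene identifiers in the count tables, taken by their GENCODE release 29 symbols, and all 6 were among the 15440 genes with enough counts to be tested. The genes were chosen with earlier results of these data known, and AKR1C1 and AKR1C2 were selected on their higher counts in treated libraries. The values of all 6 against control are therefore a description, and nothing is read from whether they passed a test. Tests are read for 72 h against 48 h and for other genes.

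UPCI-SCC-040 is an established line from an oral squamous cell carcinoma of the tongue. Total RNA was sequenced from 3 untreated cultures labelled 0 h, from 3 given the cytokine TGF-β1 at 5 ng/ml for 48 h, and from 3 given the same dose for 72 h. TGF-β1 acts through receptor kinases and SMAD transcription factors. Each group held 1 library of passage 12, 1 of passage 13 and 1 of passage 8, numbered replicates 1, 2 and 3. The labels describe growth in medium with serum and antibiotics and treatment in medium lacking both, without saying which medium the controls were in at harvest. TGF-β1, loss of serum and antibiotics, and time in culture cannot be told apart in any comparison with control. Between 72 h and 48 h, time with TGF-β1, time without serum and antibiotics and time in culture cannot be told apart either. Apart from the passage, no label says whether replicates were grown separately. The 3 libraries of a group are of different passages of 1 line, and p-values reflect only the spread among these libraries.

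Aldo-keto reductases are cytosolic enzymes that use NADPH to reduce aldehydes and ketones to alcohols. The AKR1C enzymes act on steroid hormones and prostaglandins, and the AKR1B and AKR1A enzymes act on sugars, retinal and reactive aldehydes from lipid peroxidation. AKR1B10 and the AKR1C genes are well-known targets of NRF2, the transcription factor encoded by NFE2L2 that switches on antioxidant and detoxification genes, and their overexpression has been described in squamous carcinomas of the lung.

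Library totals ran from 12544690 to 20438727 counts. All 10 squamous epithelial markers averaged at least 1 CPM over the libraries (counts scaled to a common library size with TMM factors), against 2 of 6 fibroblast markers (COL1A1 and COL1A2, with PDGFRA, DCN and LUM at 0 to 3 counts and PDGFRB at 0 to 4, or 13 in 72 h replicate 3), 0 of 3 endothelial, 0 of 4 leukocyte and 0 of 3 hepatocyte markers. Summed squamous markers were at 12373 to 21546 CPM in controls, 27989 to 34862 CPM at 48 h and 19267 to 28417 CPM at 72 h. Not every marker moved with the sum. EPCAM was lower in treated libraries (101 to 153 CPM) than in controls (155 to 203 CPM). KRT6A overlapped, at 1167 to 2587 CPM in treated libraries and 863 to 2611 CPM in controls. The fibroblast sum, nearly all collagen, was at 10.1 to 12.5 CPM in controls, 36.1 to 89.9 CPM at 48 h and 20.2 to 111 CPM at 72 h. Their part in the results was not tested, and in bulk RNA a change in the number of expressing cells and in RNA per cell cannot be told apart. The 72 h library of replicate 3 stood apart. It held 55 counts of the hepatocyte marker SERPINA1 (3.40 CPM) and 28 of the endothelial marker PECAM1 (1.73 CPM). The other 8 libraries held at most 18 and 8. The nuclear RNA MALAT1 took 1.54% of its counts, against 0.247% to 0.507% in the other 8 libraries, and ribosomal protein transcripts took 1.04%, against 1.60% and 1.85% in the other 72 h libraries. The fold changes of the 6 genes at 72 h are therefore also given without it, and other named genes where their call at 72 h changed.

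The 3 AKR1C genes lie side by side on chromosome 10 and are near-identical copies, which matters for how reads are assigned to them. AKR1C1 (ENSG00000187134) lies at chr10:4963253-4983283 on the plus strand, AKR1C2 (ENSG00000151632) at chr10:4987400-5018031 on the minus strand and AKR1C3 (ENSG00000196139) at chr10:5035354-5107686 on the plus strand (GRCh38). The coding sequences of AKR1C1 and AKR1C2, each of 969 bases, differed at 19 positions, an identity of 98.04%. AKR1C3 differed from AKR1C1 at 79 positions (91.85% identity) and from AKR1C2 at 85 (91.23%). The stretch of 90 coding bases in which AKR1C1 and AKR1C2 differed most, bases 73 to 162 counted from the first base of the start codon in GENCODE 29 transcripts, is shown because only such bases let a read be assigned to 1 copy. Capitals mark the bases that differ between AKR1C1 and AKR1C2 and, in AKR1C3, those that differ from AKR1C1.
AKR1C1: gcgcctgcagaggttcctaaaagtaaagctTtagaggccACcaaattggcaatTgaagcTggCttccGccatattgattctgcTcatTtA
AKR1C2: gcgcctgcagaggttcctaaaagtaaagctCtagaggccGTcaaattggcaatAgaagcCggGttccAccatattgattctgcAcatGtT
AKR1C3: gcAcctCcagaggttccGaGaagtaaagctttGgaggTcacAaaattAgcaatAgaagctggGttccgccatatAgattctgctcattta

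Even here the first 30 bases hold no difference between AKR1C1 and AKR1C2. Of the 920 windows of 50 bases in the AKR1C1 coding sequence, 54.35% occurred unchanged in another annotated gene, and 51.63% occurred in AKR1C2. The share was 57.07% for AKR1C2 and 23.04% for AKR1C3, and windows of 100 bases still gave 20.69% for AKR1C1, 26.44% for AKR1C2 and 9.77% for AKR1C3. Of the other members, AKR1B10 shared 28.48% of its 50-base windows, mostly with its neighbour AKR1B15, AKR1B1 shared 7.23% and AKR1A1 shared 0. Exon bases outside the coding sequence were not compared, and the exon unions hold 8765 bases in AKR1C1, 6461 in AKR1C2 and 4532 in AKR1C3. The shares are therefore not shares of reads. No source used here gives the read length or says how multi-mapping reads were counted. Single values of AKR1C1 and AKR1C2 are thus uncertain as to how reads were split, and the summed AKR1C count is given beside them.

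**Figure D1:**
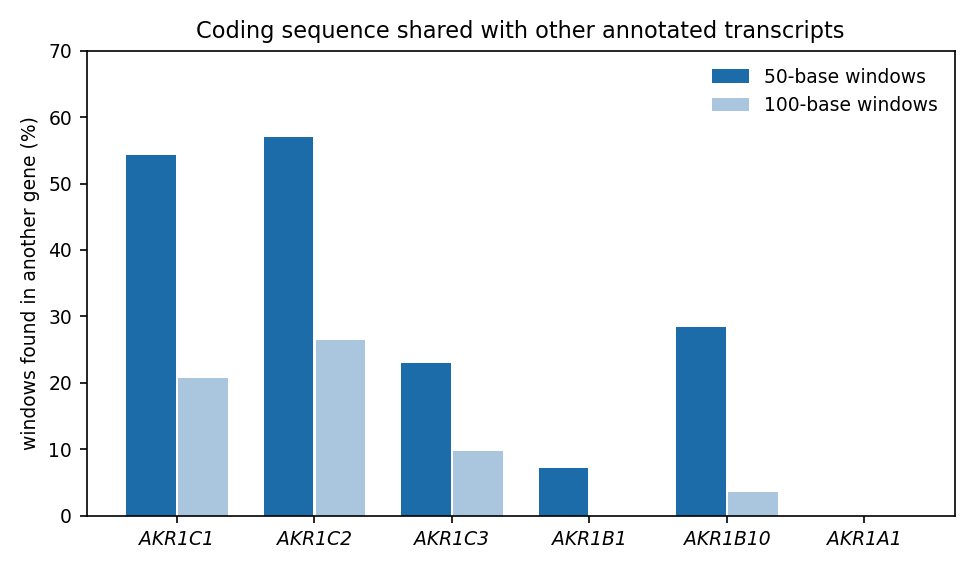
Share of windows of each member's coding sequence (vertical axis, percent) that occur unchanged in another annotated gene, for 50-base windows (dark bars) and 100-base windows (light bars). AKR1C1 and AKR1C2 stand highest at 54.35% and 57.07% of 50-base windows, and AKR1A1 is at 0 in both.

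The sequences before the transcription starts of AKR1C1 and AKR1C2 were also near copies. In the RefSeq promoter table (GRCh38.p14), which held 7 windows for 5 of the 6 members and none for AKR1B10, the 250 bases before the AKR1C1 start (chr10:4963165-4963414, plus strand) and before the AKR1C2 start (chr10:5003858-5004107, minus strand) shared an unbroken run of 245 bases. AKR1C3 had 2 windows, aligned to that of AKR1C1 with 71.43% and 69.17% identity. The antioxidant response element, the DNA site of NRF2, was searched on both strands as the core TGACNNNGC and as the looser TGANNNNGC, which includes the core. The core was in no member window and in 10.91% of all 35116 windows of this length. The looser form occurred once each in AKR1C1 and AKR1C2, on the strand opposite the gene and beginning at -41 and -45 from the start, in none of the AKR1C3, AKR1B1 and AKR1A1 windows, and in 35.16% of all windows. The 30 bases around it are shown with the match in capitals, above the bases of AKR1C3 that align with them. In AKR1C1 and AKR1C2 they also lie in the first exon of GENCODE transcripts that start further upstream.
AKR1C1 (chr10:4963364-4963393, plus strand): caggggcgttGCCAGCTCAttgctcttata
AKR1C2 (chr10:5003883-5003912, minus strand): caggggcgttGCCAGCTCAttgctcttata
AKR1C3 (chr10:5048734-5048760, plus strand): gagggcattgcctccattgattttata

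The AP-1 motif TGANTCA was in no member window (6.573% of all windows). The SMAD element CAGAC was in those of AKR1C1 and AKR1C2 and in 1 of the 2 of AKR1C3, against 38.0% of all windows. A match describes the letters only, and no match says only that these letters are not in this window.

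AKR1C1, which reduces progesterone to a less active steroid, was low in controls and higher in every treated library. It had 10.6, 8.43 and 19.3 CPM in control replicates 1, 2 and 3, 232, 70.5 and 575 CPM at 48 h and 67.8, 49.6 and 684 CPM at 72 h. The treated and control libraries did not overlap at either time, and passage 8 was highest in all 3 groups. The share of all genes that separate in this way is not given here, so nothing is read from such separation in any member. The log2 fold change was 4.52 ± 1.22 at 48 h (approximate SE; means 293 ± 258 CPM at 48 h and 12.8 ± 5.75 CPM in controls, SD, n = 3 each). It was 4.39 ± 1.21 at 72 h (267 ± 361 CPM) and 2.22 without 72 h replicate 3. Within passages 12, 13 and 8, AKR1C1 was 21.9-fold, 8.34-fold and 29.8-fold higher at 48 h than in the control of the same passage, and 6.41-fold, 5.86-fold and 35.4-fold higher at 72 h.

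AKR1C2, which inactivates the androgen dihydrotestosterone, was also higher in every treated library and lower at 72 h than at 48 h within each passage. It had 7.29, 5.58 and 7.17 CPM in control replicates 1, 2 and 3, 262, 30.3 and 522 CPM at 48 h and 22.1, 10.7 and 175 CPM at 72 h. The lowest treated library, 72 h replicate 2, still lay above the highest control. Relative to control, its log2 fold change was 5.35 ± 1.35 at 48 h and 3.37 ± 1.24 at 72 h, or 1.30 at 72 h without 72 h replicate 3. At 72 h its level was 0.0844, 0.352 and 0.335 times that at 48 h in passages 12, 13 and 8.

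AKR1C3, which makes testosterone from androstenedione and also forms F-type prostaglandins, followed AKR1C2 at a smaller size. It had 7.17, 7.25 and 9.60 CPM in control replicates 1, 2 and 3, 89.9, 23.3 and 158 CPM at 48 h and 19.9, 12.3 and 65.0 CPM at 72 h. Again no treated library overlapped the controls. Against control the log2 fold change was 3.50 ± 0.81 at 48 h and 2.02 ± 0.78 at 72 h, or 1.02 at 72 h without 72 h replicate 3. The 72 h level was 0.222, 0.528 and 0.411 times the 48 h level in passages 12, 13 and 8.

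Counts of the 3 AKR1C genes summed into 1 feature avoid most of the question of how reads were split. The sum was 25.0, 21.3 and 36.0 CPM in control replicates 1, 2 and 3, 584, 124 and 1256 CPM at 48 h and 110, 72.5 and 924 CPM at 72 h. The order of passages was the same in all 3 groups, with passage 8 highest and passage 13 lowest. In the fit with the summed count the log2 fold change was 4.58 at 48 h and 3.75 at 72 h against control, and the 72 h value was 1.74 without 72 h replicate 3.

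**Figure D2:**
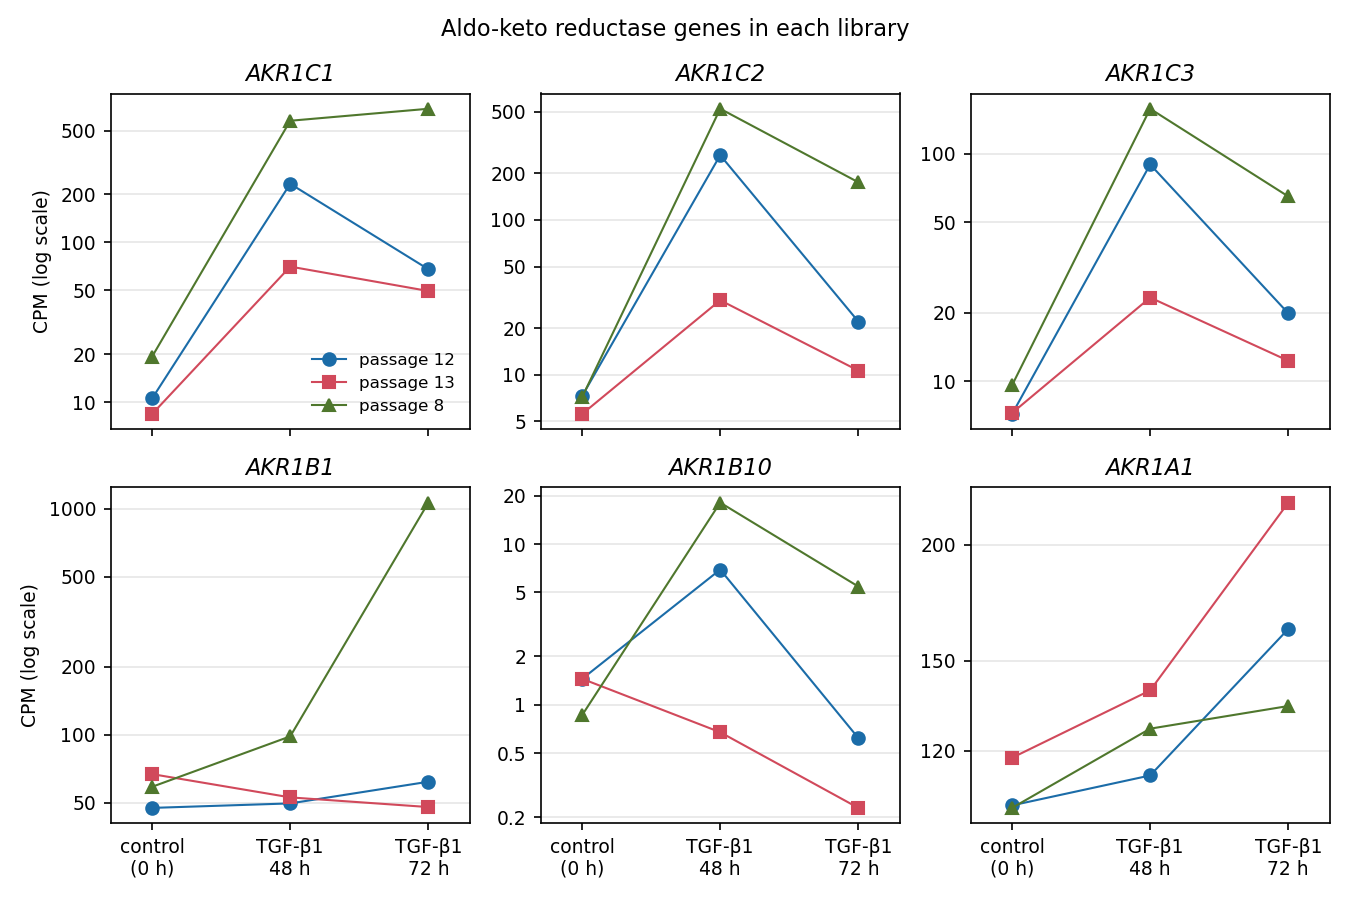
CPM (vertical axis, log scale, with its own range in each panel) of the 6 aldo-keto reductase genes in the 9 libraries, by treatment time. Each line joins the libraries of 1 passage. AKR1C1, AKR1C2 and AKR1C3 lie above their controls in all 6 treated libraries, AKR1B1 stands out only in 72 h replicate 3 at 1066 CPM, and AKR1A1 spans 104 to 222 CPM.

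AKR1C1 took a larger part of the counts of AKR1C1 and AKR1C2 in every 72 h library than in any 48 h library. AKR1C1 made up 59.1% (Wilson 95% interval 53.4% to 64.6%), 60.2% (54.1% to 65.9%) and 72.9% (68.1% to 77.2%) of the counts of the pair in control replicates 1, 2 and 3. At 48 h it made up 47.0% (46.0% to 48.0%), 69.9% (67.6% to 72.1%) and 52.4% (51.6% to 53.3%). At 72 h it made up 75.4% (73.3% to 77.5%), 82.3% (79.9% to 84.5%) and 79.6% (78.9% to 80.3%). These intervals cover counting error only, since no molecular identifiers are described. The 72 h libraries all lay above the 48 h libraries, and the control range overlapped that at 48 h. The share was 79.1% ± 3.47 at 72 h and 56.4% ± 12.0 at 48 h (SD, n = 3 each), a difference of 22.7 points, higher in 3 of 3 passages. The two-sided exact permutation p was 0.1, the smallest that 3 against 3 libraries allow, and 0.15 with Benjamini-Hochberg adjustment over 3 comparisons, so the design could not reach 0.05.

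**Figure D3:**
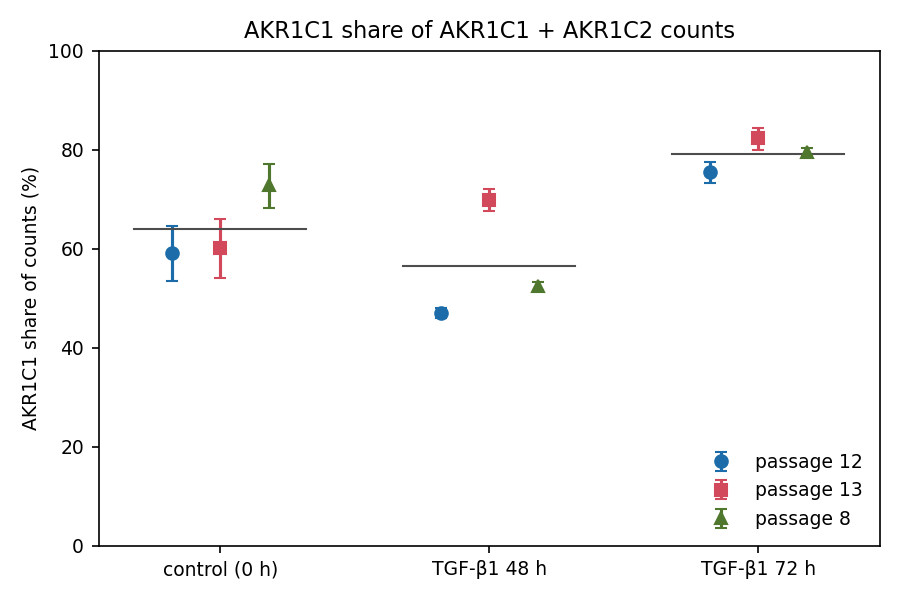
Share of AKR1C1 in the summed counts of AKR1C1 and AKR1C2 (vertical axis, percent) in each library by treatment time, with Wilson 95% intervals as error bars and group means as horizontal lines. The 72 h libraries lie at 75.4% to 82.3%, all above the 48 h libraries at 47.0% to 69.9%.

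AKR1B1, aldose reductase, turns glucose into sorbitol in the polyol pathway. AKR1B1 (ENSG00000085662) lies at chr7:134442350-134459284 on the minus strand. It had 47.4, 67.0 and 58.8 CPM in control replicates 1, 2 and 3, 49.7, 52.8 and 98.4 CPM at 48 h and 61.9, 47.9 and 1066 CPM at 72 h. The groups overlapped at both times, and 1 library, 72 h replicate 3, held 17245 counts of the gene against 1099 and 840 in the other 72 h libraries. The log2 fold change was 0.21 ± 1.03 at 48 h and 2.76 ± 1.09 at 72 h against control, and the 72 h value was -0.07 without that library. In that library AKR1B1 was 10.8-fold above the next highest library, itself the 48 h library of the same passage. Among 10635 genes averaging at least 5 CPM, only PRSS35 had a larger gap between its highest and second highest library, also in 72 h replicate 3. SORD, which turns sorbitol into fructose, was at 13.5 ± 5.20 CPM at 72 h and 18.3 ± 1.03 CPM in controls and did not pass the test (-0.44 on the log2 scale, edgeR adjusted p = 0.173), whereas without that library it was at -0.79 (adjusted p = 0.00645).

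AKR1B10, which reduces retinal and aliphatic aldehydes, was the least abundant member and had no common direction. AKR1B10 (ENSG00000198074) lies at chr7:134527592-134541408 on the plus strand. It had 24, 27 and 12 counts (1.45, 1.45 and 0.860 CPM) in control replicates 1, 2 and 3. It had 139, 11 and 222 counts (6.93, 0.674 and 18.1 CPM) at 48 h and 11, 4 and 88 counts (0.620, 0.228 and 5.44 CPM) at 72 h. Within passages 12, 13 and 8 it was at 4.71, 0.477 and 20.3 times the control at 48 h and at 0.439, 0.174 and 6.10 times the control at 72 h. Passage 8, lowest of the 3 in controls, was highest at both treated times. The log2 fold change was 2.74 ± 1.25 at 48 h, or 1.60 without 48 h replicate 3. It was 0.71 ± 1.26 at 72 h, and the 72 h value turned to -1.55 without 72 h replicate 3 and to -0.26 with passage as a block.

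AKR1A1, aldehyde reductase, a broadly expressed enzyme that reduces many aldehydes, varied least. AKR1A1 (ENSG00000117448) lies at chr1:45550543-45570049 on the plus strand. It had 105, 118 and 104 CPM in control replicates 1, 2 and 3, 113, 139 and 127 CPM at 48 h and 162, 222 and 134 CPM at 72 h. The 72 h libraries lay above all controls, while 1 of the 48 h libraries lay within the control range. Against control its log2 fold change was 0.21 ± 0.18 at 48 h and 0.67 ± 0.18 at 72 h, or 0.82 at 72 h without 72 h replicate 3. Within passages 12, 13 and 8 the 72 h level was 1.55-fold, 1.88-fold and 1.29-fold that of the control, so that passage 8, highest in the AKR1C genes, was lowest here.

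Across all 15440 genes tested, 31.0% were called at 48 h against control, 14.9% higher and 16.0% lower, by edgeR's quasi-likelihood test at an adjusted p under 0.05. At 72 h 39.8% were called, 20.4% higher and 19.4% lower. The same fit called 3 of the 6 members at 48 h and 2 at 72 h. Since the choice of genes used these comparisons, nothing is read from these counts. The median log2 fold change of the members was 3.12 at 48 h and 2.39 at 72 h, beside -0.0019 and 0.03 over all genes tested.

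Between the treated times no member passed the test. The log2 fold change at 72 h against 48 h was -0.13 ± 1.04 for AKR1C1, -1.97 ± 1.14 for AKR1C2, -1.48 ± 0.74 for AKR1C3, -2.03 ± 1.19 for AKR1B10, 2.55 ± 1.08 for AKR1B1 and 0.45 ± 0.18 for AKR1A1. Adjusted p-values ran from 0.533 to 0.977 in edgeR's quasi-likelihood test, and unadjusted p was under 0.05 for AKR1B1 and AKR1A1. Over all genes 0 of 15440 (0%) were called, with 1382 at an unadjusted p under 0.05 and 50 called by DESeq2, which called 0 of the 5 members it gave an adjusted p. Without 72 h replicate 3 the values were -2.31 for AKR1C1, -4.05 for AKR1C2, -2.48 for AKR1C3, -4.29 for AKR1B10, -0.28 for AKR1B1 and 0.61 for AKR1A1. AKR1C2, AKR1C3 and AKR1B10 were lower at 72 h than at 48 h in 3 of 3 passages, and AKR1A1 was higher in 3 of 3. The share of all genes with 1 direction in 3 of 3 passages is not given here, so nothing is read from these directions in any member.

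Levels between the genes were compared as RPKM, that is CPM per 1000 bases of the union of annotated exons. In controls AKR1A1 was highest at 34.9 ± 2.49 RPKM, ahead of AKR1B1 at 15.8 ± 2.68, and neither overlapped the other or the low 4 genes, AKR1C3 at 1.77 ± 0.305, AKR1C1 at 1.45 ± 0.656, AKR1C2 at 1.03 ± 0.147 and AKR1B10 at 0.718 ± 0.195. Among these, the library ranges of neighbours in the order overlapped except those of AKR1C2 and AKR1B10. At 48 h AKR1C2 (42.0 ± 38.1 RPKM), AKR1A1 (40.5 ± 4.25), AKR1C1 (33.4 ± 29.4), AKR1C3 (19.95 ± 14.9) and AKR1B1 (18.3 ± 7.45) overlapped from neighbour to neighbour, and AKR1B10 was below AKR1B1 without overlap at 4.91 ± 5.06. At 72 h AKR1B1 averaged 107 ± 159 RPKM through 1 library, AKR1A1 55.4 ± 14.4, AKR1C1 30.5 ± 41.2, AKR1C2 10.7 ± 14.2, AKR1C3 7.15 ± 6.29 and AKR1B10 1.20 ± 1.66, and every gene overlapped its neighbour. The exon unions run from 1744 bases in AKR1B10 to 8765 in AKR1C1. Per coding length, 948 to 975 bases in the 6 genes, AKR1C1 came first at 48 h at 302 RPKM, ahead of AKR1C2 at 280.3 and AKR1A1 at 130, which is another order than per exon length. At 72 h AKR1C1 (275.6 RPKM) then stood above AKR1A1 (177), and in controls AKR1C1 (13.2) above AKR1C3 (8.26), so the order depended on the length used in all 3 groups.

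Across the 9 libraries the log2 CPM of AKR1C2 and AKR1C3 moved most closely together, with a Pearson r of 0.996, and of 0.991 for deviations from the group means. AKR1C1 had an r of 0.943 with AKR1C2 and 0.949 with AKR1C3. AKR1B10 followed AKR1C2 more closely in deviations from the group means (0.984) than over all libraries (0.825), and AKR1A1 ran opposite to every other member in these deviations (-0.695 to -0.772). These points share libraries, depth and, for AKR1C1 to AKR1C3, sequence, so the values are descriptions. Among 10621 other genes averaging at least 5 CPM, the 8 whose log2 CPM was most like the summed AKR1C count over 9 libraries included NEDD9 (r = 0.992), CBR1 (0.987), RRAGB, IRF2, ZBTB1, HEG1 and STARD5 (0.978 to 0.983). In deviations from the group means they were DDX60L (0.997), HSPA1B (0.995), NEDD9, CXCL10, C19orf66, SAMD9, SAMD9L and HACD2 (0.990 to 0.992). NEDD9, a scaffold protein of integrin signalling, was in both sets. HSPA1B has a near-identical neighbour, so its counts are uncertain too.

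Other family genes had few counts or smaller differences. The pseudogene AKR1C7P rose to 1.60 ± 0.581 CPM at 48 h, against 0.213 ± 0.127 CPM in controls, a log2 fold change of 2.89 ± 0.53 (edgeR adjusted p = 0.00415), and to 0.669 ± 0.298 CPM at 72 h (1.66 ± 0.56, adjusted p = 0.0399, or 0.122 without 72 h replicate 3). It had 17 to 31 counts per library at 48 h and 2 to 5 in controls. No 50-base window of the AKR1C1, AKR1C2 or AKR1C3 coding sequence occurred in AKR1C7P. Sequence outside the coding bases was not compared, and whether AKR1C7P holds reads of its neighbours was not tested. AKR1B15, the neighbour of AKR1B10, had 24, 0 and 47 counts in 48 h replicates 1, 2 and 3 and 4 to 7 in controls, and did not pass the test at either time (edgeR adjusted p = 0.270 and 0.438). KCNAB2, a potassium channel beta subunit with the aldo-keto reductase fold, rose at 72 h by 1.21 ± 0.40 on the log2 scale (edgeR adjusted p = 0.0365, or 0.103 without 72 h replicate 3). AKR1E2, AKR7A2, KCNAB1 and KCNAB3 did not pass at either time, at log2 fold changes of -0.49 to 0.38. AKR1C4, the hepatic AKR1C enzyme, AKR1D1, AKR7A3, AKR7L, AKR1C6P, AKR1C8P and AKR1B10P1 had 0 to 8 counts in each library and were not tested.

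The NRF2 list held 28 genes of the antioxidant response other than aldo-keto reductases. At 48 h 11 of 28 rose and 0 fell, where 14.9% of all genes were higher and 16.0% lower, with a median log2 fold change of 0.64 beside -0.0019 over all genes. NQO1, the quinone reductase most used as a readout of NRF2, rose to 888 ± 263 CPM at 48 h, against 490 ± 133 CPM in controls (0.86 ± 0.26, edgeR adjusted p = 0.0333). Within replicate 2 NQO1 hardly differed, at 627 CPM at 48 h and 618 CPM in the control. The efflux pump ABCC3 rose by 1.80 ± 0.26 on the log2 scale (edgeR adjusted p = 0.00193). Of the other called genes, FTL (705 and 673 CPM), TKT (342 and 327 CPM) and SLC7A11 (191 and 205 CPM) also differed little within replicate 2. The rest of the called genes were higher at 48 h there, among them PRDX1 (660 and 566 CPM) and ABCC3 (69.8 and 25.8 CPM). The glutathione synthesis gene GCLM (-0.27 ± 0.23, adjusted p = 0.406) and the thioredoxin reductase TXNRD1 (0.15 ± 0.31, adjusted p = 0.740) did not pass. The count was 4 without 48 h replicate 1, where 2837 of 15927 genes were called, 1491 of them higher. It was 3 without 48 h replicate 3, and 3, 5 and 4 without control replicate 1, 2 and 3. Calls over all genes also shifted when libraries were left out, so these lower counts are not a result about the list.

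At 72 h 5 of the 28 rose and 2 fell, where 20.4% of all genes were higher and 19.4% lower, with a median of 0.16 beside 0.03. Among those that rose were the epoxide hydrolase EPHX1 (2.73 ± 0.88, edgeR adjusted p = 0.0384), the heme oxygenase HMOX1 (1.80 ± 0.36, adjusted p = 0.00425) and ABCC3 (1.37 ± 0.26, adjusted p = 0.00372). TRIM16, a ubiquitin ligase, fell by 1.58 on the log2 scale (edgeR adjusted p = 0.00105) and GCLM fell by 1.06 (adjusted p = 0.00697). NQO1 was at 357 ± 54.7 CPM at 72 h (-0.45 ± 0.26 against control, edgeR adjusted p = 0.190). EPHX1 had 1574 counts in 72 h replicate 3 and 355 and 165 in the other 72 h libraries. Without 72 h replicate 3 EPHX1 was at 1.21 (edgeR adjusted p = 0.146), and 3 of the 28 were called higher and 3 lower. The share over all genes in that fit is not given here, so nothing is read from these counts. Between 72 h and 48 h none was called, with 12 at an unadjusted p under 0.05 and 3 called lower by DESeq2. The list median there was -0.50 beside 0.02 over all genes, and NQO1 was at -1.31 (edgeR adjusted p = 0.466).

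Regulators of NRF2 were read separately. NFE2L2 itself was at -0.23 ± 0.19 at 48 h and -0.45 ± 0.19 at 72 h on the log2 scale (edgeR adjusted p = 0.383 and 0.0845), and KEAP1, which holds NRF2 for degradation, at -0.16 ± 0.12 and -0.13 ± 0.12 (adjusted p = 0.354 and 0.432). Without 72 h replicate 3, NFE2L2 at 72 h was at -0.57 (edgeR adjusted p = 0.0385). SQSTM1, which binds KEAP1, rose by 1.39 ± 0.27 at 48 h (edgeR adjusted p = 0.00562) and by 1.73 ± 0.27 at 72 h (adjusted p = 0.00163). BACH1, a repressor at the same DNA sites, rose by 0.93 ± 0.31 and 1.01 ± 0.31 (edgeR adjusted p = 0.0483 and 0.0282), and the partner MAFG by 0.89 ± 0.18 and 0.87 ± 0.18 (adjusted p = 0.00607 and 0.00486). MAFK and NFE2L1 rose at 72 h, by 0.99 ± 0.23 and 0.52 ± 0.18 (edgeR adjusted p = 0.00849 and 0.0452). Without 72 h replicate 3 the 72 h calls of BACH1 and NFE2L1 were lost (edgeR adjusted p = 0.0550 and 0.0510). CUL3 and MAFF did not pass at either time, whereas without that library MAFF at 72 h was at 0.92 (edgeR adjusted p = 0.0190).

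Of 51 listed other enzymes of aldehydes, sugars, steroids, prostaglandins and retinoids, 44 were tested. At 48 h 6 rose and 6 fell, where 31.0% of all genes were called, and at 72 h 7 rose and 9 fell, where 39.8% were. Counts this near the share over all genes are not a result about the list, and its medians were 0.07 and 0.06. ALDH1A3, which makes retinoic acid from retinal, fell to 46.2 ± 18.3 CPM at 72 h, against 420 ± 81.3 CPM in controls (-3.18 ± 0.29, edgeR adjusted p = 0.000221). DHRS3, a retinal reductase, fell by 2.17 on the log2 scale, HSD11B2, which inactivates cortisol, by 1.18, and the carbonyl reductase CBR3 by 1.11 (edgeR adjusted p = 0.00609, 0.0256 and 0.00528). HSD17B7, of cholesterol and estrogen synthesis, rose by 1.18 ± 0.32, CYP26B1, which breaks down retinoic acid, by 1.13 ± 0.26, RDH11, a retinol dehydrogenase, by 1.13 ± 0.16 and CBR4 by 0.87 ± 0.24 (edgeR adjusted p = 0.0165, 0.00759, 0.000978 and 0.0163). CBR1, among the genes most like the AKR1C sum, rose by 0.46 ± 0.16 at 48 h (edgeR adjusted p = 0.0483). Named after their values were seen, ALDH3A1 and the prostaglandin reductase PTGR1 rose at 48 h by 2.57 ± 0.58 and 1.34 ± 0.32 (edgeR adjusted p = 0.0117 and 0.0144) and did not pass at 72 h. Between 72 h and 48 h none was called, with 6 at an unadjusted p under 0.05 and 0 by DESeq2. The count at 48 h was 21 without 72 h replicate 3, and the count at 72 h was 9 without control replicate 1. Calls over all genes also shifted when libraries were left out, so neither count is a result about the list.

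**Figure D4:**
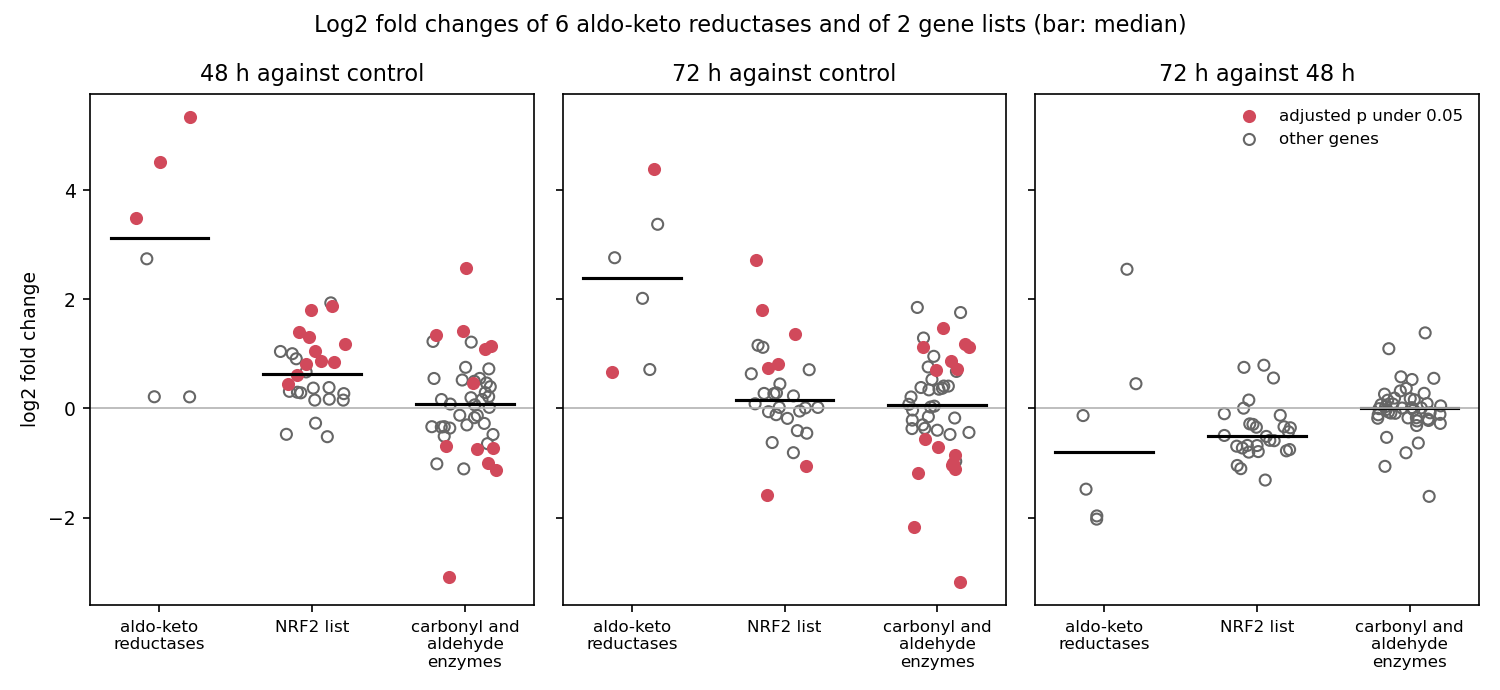
Log2 fold changes (vertical axis) of the 6 aldo-keto reductases, the 28 genes of the NRF2 list and the 44 tested carbonyl and aldehyde enzymes in the 3 comparisons. Filled points have an edgeR adjusted p under 0.05, open points do not, and horizontal bars are medians. The NRF2 list has a median of 0.64 at 48 h and 0.16 at 72 h against control and of -0.50 between the times, and the points of the aldo-keto reductases against control are a description.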

How the data were processed

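Gene counts of 9 libraries were analysed. The deposited values are whole-number counts of reads per Ensembl gene on build hg38, per the labels, with no normalization. Per the submitters' processing notes, the tools were featureCounts 1.5.0-p1, STAR 2.5.2a, FastQC 0.11.5 and bcl2fastq 2.17.1.14. No source used here gives the annotation, strand setting, read length or counting of multi-mapping reads. Of 58233 identifiers, 57895 matched GENCODE release 29 (GRCh38). Library totals ran from 12544690 to 20438727 counts, and replicates differed by more than sampling noise (chi-square per degree of freedom 8.994 to 158.8).

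Tests used edgeR 4.0.16 under R 4.3.3 on the counts, with TMM scaling, filterByExpr, 1 model of group over all 9 libraries (6 residual degrees of freedom), robust quasi-likelihood fitting with its F test, and Benjamini-Hochberg adjustment over 15440 genes at 0.05. The test was checked on simulated data with known changes. CPM values use TMM-scaled totals, RPKM divides them by the exon union in kilobases, SD is over 3 libraries, and SEs of log2 fold changes are approximate (absolute value over the square root of F). Correlations used log2 CPM with a prior of 0.5 counts. The members, gene lists and rules were chosen with earlier results of these data known. Named outside the members were every other family gene and NRF2 regulator with counts, from each list the 4 highest and 4 lowest called log2 fold changes at 72 h against control among genes averaging at least 1 CPM, NQO1, TXNRD1 and GCLM, and the 8 genes most like the summed AKR1C count. Some genes that these rules took are not reported here. AKR1CL1 had no entry in GENCODE 29 and was not analysed here.

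Per the labels, libraries with the same replicate number come from 1 passage, so the number was a block in an alternative fit (4 residual degrees of freedom). Deviations from the group means of same-numbered libraries correlated at 0.106, 0.0769 and 0.124 (48 h and control), 0.042, 0.102 and 0.103 (72 h and control) and -0.0165, 0.472 and 0.474 (72 h and 48 h), so the pairing rests on the labels. Other alternatives were DESeq2 1.42.0, edgeR with DESeq2 or upper-quartile scaling, no filter, 1 CPM in 3 libraries, only the 2 groups compared, summed AKR1C counts, and leaving out each library or number in turn. Coding length in place of exon length, and gene values without 72 h replicate 3 for the AKR1C sum and other genes, were added after seeing the data. Coding sequences came from GENCODE 29 transcripts and promoter windows from RefSeq. Protein sequences were not used here.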

Additional observations from a re-analysis of the deposited data

How the results depend on the processing

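Against control, AKR1C1, AKR1C2, AKR1C3 and AKR1A1 were higher at both times under every alternative run, while the number of members called was not stable. At 48 h it was 0 without a filter, in a fit that tested 36944 genes and called 4939. At 72 h it was 4 by DESeq2, 1 without a filter and 4 with only the 2 groups compared. Over all genes these fits called 6533 of 15429, 6276 of 36944 and 5651 of 14937. Leaving out libraries gave 0 to 3 members at 48 h and 0 to 5 at 72 h. The calls over all genes then ran from 765 to 6289 at 48 h and from 2602 to 6184 at 72 h, the NRF2 list at 48 h from 1 to 15, and the carbonyl list from 4 to 21 at 48 h and from 6 to 18 at 72 h. The NRF2 list had 11 calls at 72 h by DESeq2. The carbonyl list had 20 at 48 h with only the 2 groups compared, where 6161 of 14810 genes were called. Between 72 h and 48 h, where the main count was 0, DESeq2 called 50 genes and 3 of the NRF2 list, and the fit without a filter 211 genes, 9 of the NRF2 list and 2 of the carbonyl list. There the AKR1C1 log2 fold change ran from -2.31 to 0.82 without single libraries or replicate numbers, and that of AKR1B1 from -0.28 to 3.05. The cause of these shifts was not tested. With passage as a replicate block the members called were 3 at 48 h, 3 at 72 h and 0 between the times. Over all 15440 genes that fit called 5113, 6465 and 0, and nothing is read from the member counts for the comparisons with control. The AKR1C1 value was then 4.09 at 48 h and 3.49 at 72 h. Upper-quartile factors gave 2575 genes higher and 2205 lower at 48 h. A coding length from the RefSeq protein was not run. Over all alternatives, 343 single-gene values stayed within the spread between replicates or on their side of the threshold, 27 moved, among them levels per coding length, and 5 between the treated times turned sign (AKR1C1 and AKR1B1). Against control AKR1B1 at both times and AKR1B10 at 72 h also turned sign under some alternatives. Of the counts 184 stayed within 1.5 times the main count and 44 did not. Depth limits AKR1B10 most, at 4 to 27 counts in 6 of 9 libraries.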

Other observations

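Other genes shared the position of AKR1B1 as far highest in 72 h replicate 3. They were chosen after their values were seen. PRSS35, a serine protease-like protein, had 90.3 CPM in that library, 1.96 CPM in 48 h replicate 3 and at most 0.113 CPM in the other 7 libraries. ISYNA1, which makes inositol phosphate from glucose phosphate, had 171 CPM there and 2.77 to 21.2 CPM in the other libraries. RCAN1, an inhibitor of calcineurin, had 192 CPM there and 16.7 to 24.5 CPM elsewhere. The complement proteases C1S and C1R had 138 and 140 CPM there, and at most 18.5 and 25.9 CPM elsewhere. The cytokine TNFSF15 had 430 CPM there and 4.89 to 77.4 CPM elsewhere. For PRSS35, ISYNA1, RCAN1, TNFSF15 and, narrowly, C1S the second highest library was 48 h replicate 3, of the same passage. For C1R it was 72 h replicate 1. The part of MALAT1 and ribosomal protein shares in these values was not tested.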
